A study of Amphiprion ocellaris with 30 samples.

Results

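Of 22816 genes measured in clownfish larvae, 177 were raised over DMSO by both SR9243 and T3 under the following rule. Differences are on the log2-like scale of the deposited values. A gene belonged here when both differences of group means from DMSO were at least 1 and when its T3 mean exceeded its SR9243 mean by less than 1. The 200 genes with the highest mean over all libraries were left out, and 11 of those would otherwise have qualified. The rule sets no limit on how far SR9243 may exceed T3. The members were thus chosen by the group means against DMSO, and their differences from DMSO, and between the treatments, are given as a description and not as tests.

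The libraries came from entire wild-type larvae of Amphiprion ocellaris, held at 27 °C in beakers of sea water and collected 5 days after treatment began. There were 10 libraries with SR9243 at 1e-07 M, 10 with T3 at 1e-07 M and 10 with the solvent DMSO at 0.0001%. The word IOP stands unexplained in every T3 title, and the labels do not say whether the SR9243 and T3 beakers contained DMSO. Nothing says whether a library is 1 larva or pooled larvae, or which libraries shared a beaker or clutch, so p-values measure the spread between these libraries only.

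T3, or triiodothyronine, is the active thyroid hormone. It binds thyroid hormone receptors, nuclear receptors that sit on DNA and switch target genes, and in fishes the hormone drives the metamorphosis of the larva into a juvenile. SR9243 is a synthetic compound, and the title of the series calls it an LXR antagonist. LXR is the liver X receptor, which is activated by oxysterols and controls cholesterol transport and lipid synthesis. Thyroid hormone receptors and LXR are both known to bind DNA together with the retinoid X receptor. Genes are given by their Ensembl IDs. Of these 0 could be given a symbol from the reference gene table used here, so the members' functions, marker genes of the labelled tissue and sequences are not described. Members are instead ranked by the smaller of their differences from DMSO, and the first of the ranking are named by ID.

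The members spanned most of the expression range. Their mean level in SR9243 libraries ran from 4.27 to 13.0 with a median of 8.13, in T3 libraries from 4.35 to 13.3 with a median of 8.43, and in DMSO libraries from 3.09 to 11.7 with a median of 6.61. Terciles were taken of the mean level over all 30 libraries in the 22615 tested genes. Of the members, 28 lay in the lowest, 58 in the middle and 91 in the highest tercile. That mean includes the treated libraries, in which the rule requires members to be raised, so these counts follow partly from the rule. In DMSO libraries alone, the members' median of 6.61 compared with 6.85 over all tested genes. All 177 passed the filter on low values, and 163 were above the lowest value of the table in all 30 libraries. At least 1 library was listed at that lowest value for 2 members in SR9243, for 2 in T3 and for 14 in DMSO libraries. In whole larvae, fewer cells that express a gene and less of its RNA per cell cannot be told apart.

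The median difference from DMSO over the members was 1.304 under SR9243 and 1.76 under T3. Over all tested genes the same medians were -0.0075 and -0.0149. The SR9243 difference amounted to 80.8% of the T3 difference in the median member, with the middle 50% of members between 68.6% and 96.3%. Over all members it ran from 50.8% to 191%, so the 2 differences were not alike in every member. The limits of the rule keep this share above 50%, so its lower end is not a finding. T3 and SR9243 means lay within 0.25 of each other in 62 members and within 0.5 in 106. The T3 mean was 0.5 to 1 above the SR9243 mean in 67 members. It was below the SR9243 mean in 41, and by 0.5 or more in 4. Both differences reached 2 in 20 members and 3 in 4. No gap separated the members from other genes at the limits of the rule. The smallest SR9243 difference inside was 1.01 and the largest left outside 0.997, for T3 these were 1.00 and 0.995, and for T3 minus SR9243 the largest inside was 0.99 and the smallest outside 1.01. Of the members, 55 lay within 0.1 of at least 1 limit.

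**Figure D1:**
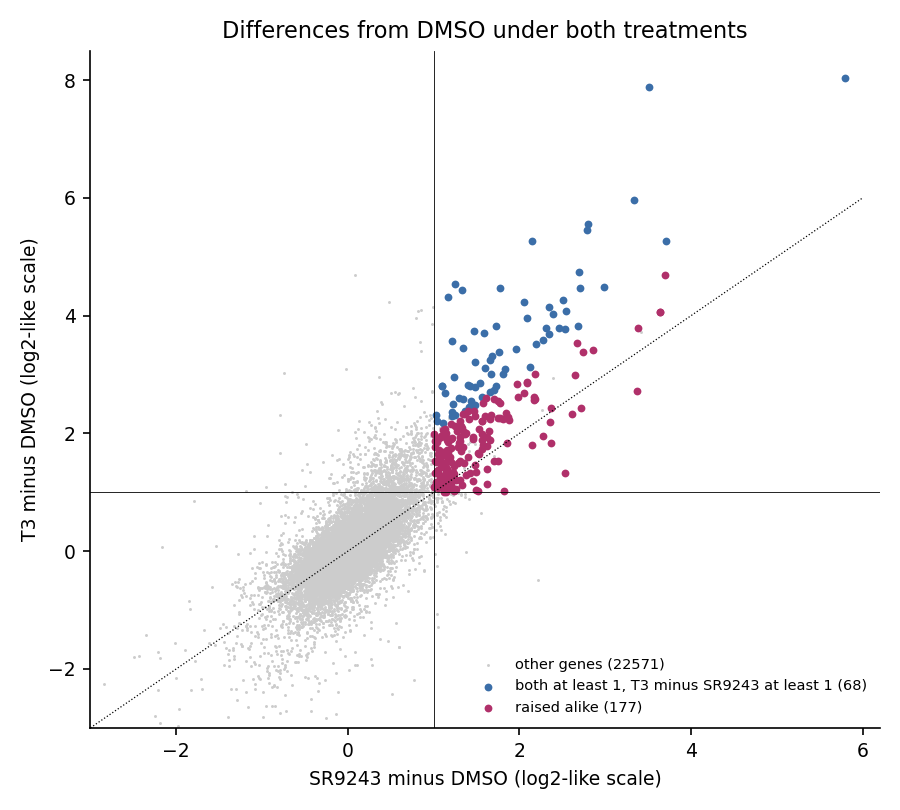
Each point is a gene, with its SR9243 minus DMSO difference of means across and its T3 minus DMSO difference upwards, both on the log2-like scale. The dotted line marks equal differences, the thin lines mark 1, and 28 genes below -3 on either axis are not drawn. The 177 members sit in the upper right corner around the dotted line, and the 68 genes with T3 at least 1 above SR9243 sit above them.

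Among the members, ENSAOCG00000004066 ranked first by the smaller of its differences from DMSO. Its values ran from 11.2 to 12.8 with a median of 11.99 in SR9243 libraries, from 12.4 to 13.7 with a median of 13.0 in T3 libraries and from 6.21 to 10.1 with a median of 8.68 in DMSO libraries. Neither treated group overlapped DMSO, whereas SR9243 and T3 libraries overlapped each other. The DMSO libraries were far apart, with libraries 6 and 7 lowest at 6.21 and 6.31 and libraries 2 and 10 highest at 9.74 and 10.1. The means were 12.1 ± 0.54 under SR9243, 13.1 ± 0.41 under T3 and 8.37 ± 1.42 in DMSO (SD, n = 10 each). The differences from DMSO were 3.70 for SR9243 and 4.69 for T3 (SE 0.38 each). The SE comes from a model that pools the spread of the 3 groups. The spread was widest in DMSO, so this SE is too small for differences from DMSO. T3 exceeded SR9243 by 0.985, just inside the limit of 1. With quantile normalisation the differences from DMSO were 3.64 and 4.83, too far apart to meet that limit. Larger differences under both treatments occurred outside the members. In the 68 genes with T3 at least 1 above SR9243, the SR9243 difference reached 5.79.

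ENSAOCG00000001731 was second. Its values ran from 10.97 to 11.8 with a median of 11.5 under SR9243, from 10.8 to 12.4 with a median of 11.9 under T3 and from 4.89 to 9.95 with a median of 7.68 in DMSO. Both treated groups lay above every DMSO library and overlapped each other, with T3 reaching both lower and higher than SR9243. In DMSO, library 4 was lowest at 4.89 and libraries 8 and 10 were highest at 9.95 and 9.63. The differences from DMSO were 3.64 for SR9243 and 4.06 for T3 (SE 0.37 each, pooled over the 3 groups and too small for the same reason). The member ranked 3 had the same value as ENSAOCG00000001731 in all 30 libraries. Over the whole series, 172 gene IDs shared all their values with another ID, as 83 distinct profiles. Whether reads of such IDs could be told apart was not tested, and the values of this pair are uncertain for that reason. The pair counts as 2 members in all counts here, and the 177 members hold 176 distinct profiles.

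Further down the ranking, members 4 to 6 repeated this pattern at lower levels. Member 4 averaged 8.91 ± 0.50 under SR9243, 9.32 ± 0.52 under T3 and 5.52 ± 1.26 in DMSO (SD, n = 10 each). Member 6 averaged 8.02 ± 0.24 under SR9243, 8.66 ± 0.21 under T3 and 5.27 ± 1.13 in DMSO. Members 7 and 10 were higher under SR9243: member 7 stood at 10.9 ± 0.32 under SR9243, 10.2 ± 0.49 under T3 and 7.52 ± 1.75 in DMSO. In each of these the SD was larger in DMSO than in either treated group. The member with the highest mean level, ranked 79, differed little between treatments, at 13.0 ± 0.15 under SR9243, 13.2 ± 0.17 under T3 and 11.7 ± 1.02 in DMSO. The tightest member, ranked 125 and having the smallest summed SD, averaged 7.02 ± 0.25 under SR9243, 7.34 ± 0.21 under T3 and 5.89 ± 0.27 in DMSO. These examples outside the first ranks were chosen after their values were seen.

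**Figure D2:**
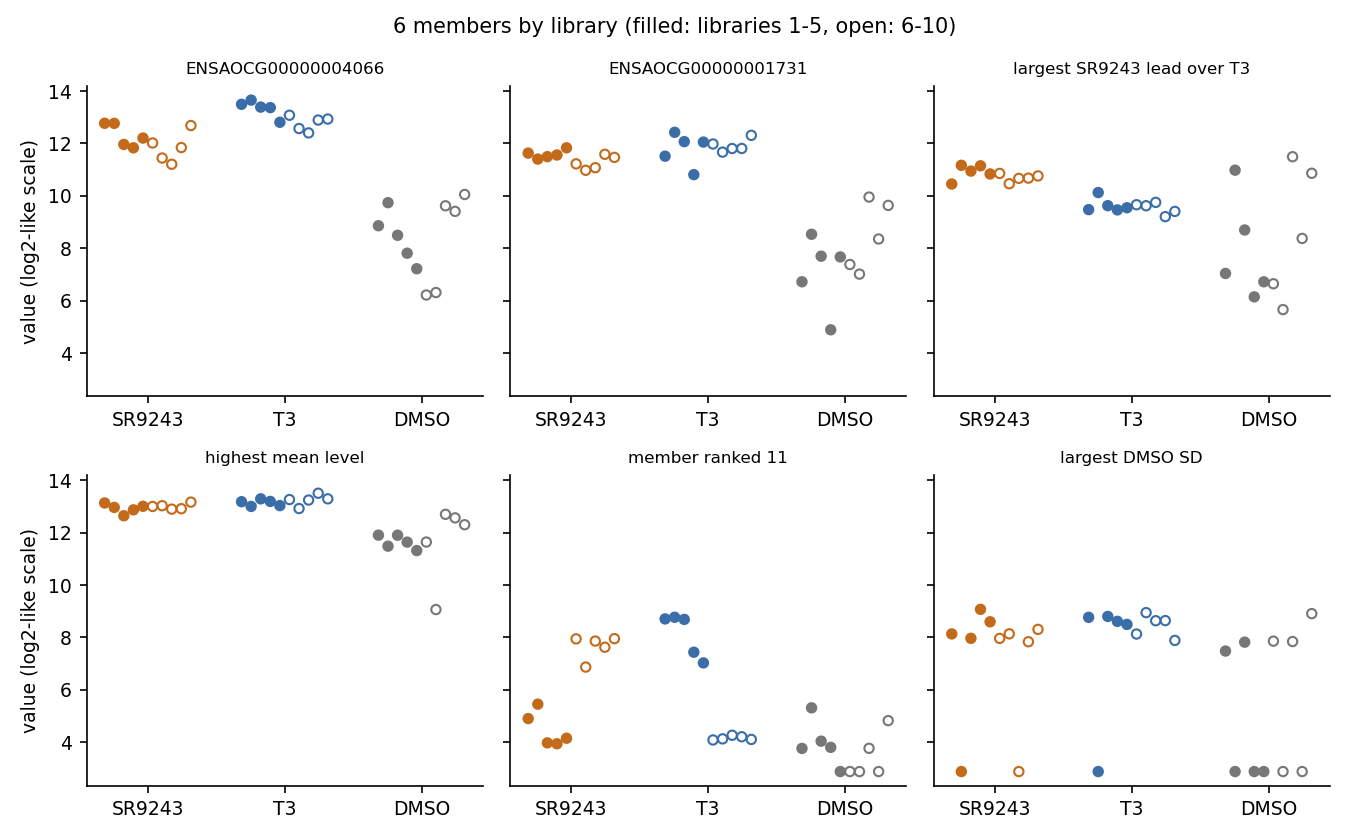
Values of 6 members in every library, on the log2-like scale, with SR9243, T3 and DMSO from left to right, filled points for libraries 1 to 5 and open points for 6 to 10. In ENSAOCG00000004066 and ENSAOCG00000001731 all treated libraries lie above all DMSO libraries. The member ranked 11 is high in SR9243 libraries 6 to 10 and T3 libraries 1 to 5, and the member with the largest DMSO SD is either near 8 or at the lowest value.

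Separation from DMSO was more often complete under T3. The 10 T3 libraries lay above the 10 DMSO libraries without overlap in 129 members, against 7.08% of all tested genes. The 10 SR9243 libraries did so in 70 members, against 1.19%. The rule used these contrasts, so nothing is read from the excess over all genes. Both treatments were free of overlap in 65 members, against 0.884% of all tested genes. Among the 20 members with both differences of at least 2, 17 were free of overlap under both treatments, and among the 122 with a smaller difference of 1 to 1.5 this held for 30. Larger differences of means leave less room for overlap, so this order follows from how the classes were cut. In the limma model over all 3 groups, with a Benjamini-Hochberg adjusted p under 0.05 as the threshold for a call, 175 members were called higher for SR9243 (15% of all tested genes) and 176 for T3 (24.8%). These calls follow from the rule as well.

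The members that missed a call, ranked 34 and 155, had wide spreads in DMSO. Member 155 averaged 9.53 ± 1.24 under SR9243, 9.80 ± 0.61 under T3 and 8.48 ± 2.21 in DMSO (SD, n = 10 each), where its values ran from 5.77 to 10.8. It was called for neither treatment. Member 34 was close to all or none, and is the member with the largest DMSO SD. It was called for T3 but not for SR9243. Its spread was wide in every group, with an SD of 2.29 under SR9243, 1.82 under T3 and 2.71 in DMSO. It was listed at the lowest value in 2 SR9243, 1 T3 and 5 DMSO libraries. In the libraries above that value it lay between 7.84 and 9.07 under SR9243, between 7.89 and 8.95 under T3 and between 7.48 and 8.91 in DMSO. The groups thus differed in how many libraries were above the lowest value, and the levels of those libraries overlapped.

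DMSO libraries 8 and 10 were often the highest DMSO libraries, in members with overlap as over all members. In the 107 members with SR9243 and DMSO overlap, DMSO library 8 was the highest DMSO library in 41 and library 10 in 26. In the 48 members with T3 and DMSO overlap, the counts were 15 and 14. Over all members the shares were 37.9% for library 8 and 25.4% for library 10, against 9.44% and 8.45% of all tested genes. These libraries thus do not set the overlapping members apart. With both left out, 110 members were free of overlap under SR9243, against 2.41% of all tested genes, and 148 under T3, against 8.33%. Leaving out DMSO libraries can only raise these counts, and the other members still overlapped. DMSO library 8 exceeded the lowest SR9243 library in 62 members and DMSO library 10 in 53, whereas the other DMSO libraries did so in 8 to 31. These last counts were not taken over all tested genes, so they are a description only.

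The DMSO libraries differed in their level of these genes. The mean over the members was 8.27 ± 0.18 in SR9243 libraries, 8.60 ± 0.11 in T3 libraries and 6.78 ± 0.50 in DMSO libraries (SD, n = 10 each). Per library it ran from 8.01 to 8.57 under SR9243 with a median of 8.32, from 8.41 to 8.81 under T3 with a median of 8.59 and from 5.81 to 7.50 in DMSO with a median of 6.80. SR9243 and T3 overlapped, and DMSO lay below both. The rule puts the DMSO group mean at least 1 below both treated means, so that order was fixed in advance. In DMSO, library 7 was lowest at 5.81 and library 4 next at 6.35, while libraries 8 and 10 were highest at 7.50 and 7.36. The mean over all tested genes was 6.85 to 6.89 in DMSO libraries. The values are normalised, and higher and lower genes cancel in that mean, so it cannot show whether a DMSO library deviates. The number of genes at the lowest value ranged from 592 to 705 in SR9243, from 618 to 730 in T3 and from 558 to 701 in DMSO libraries.

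**Figure D3:**
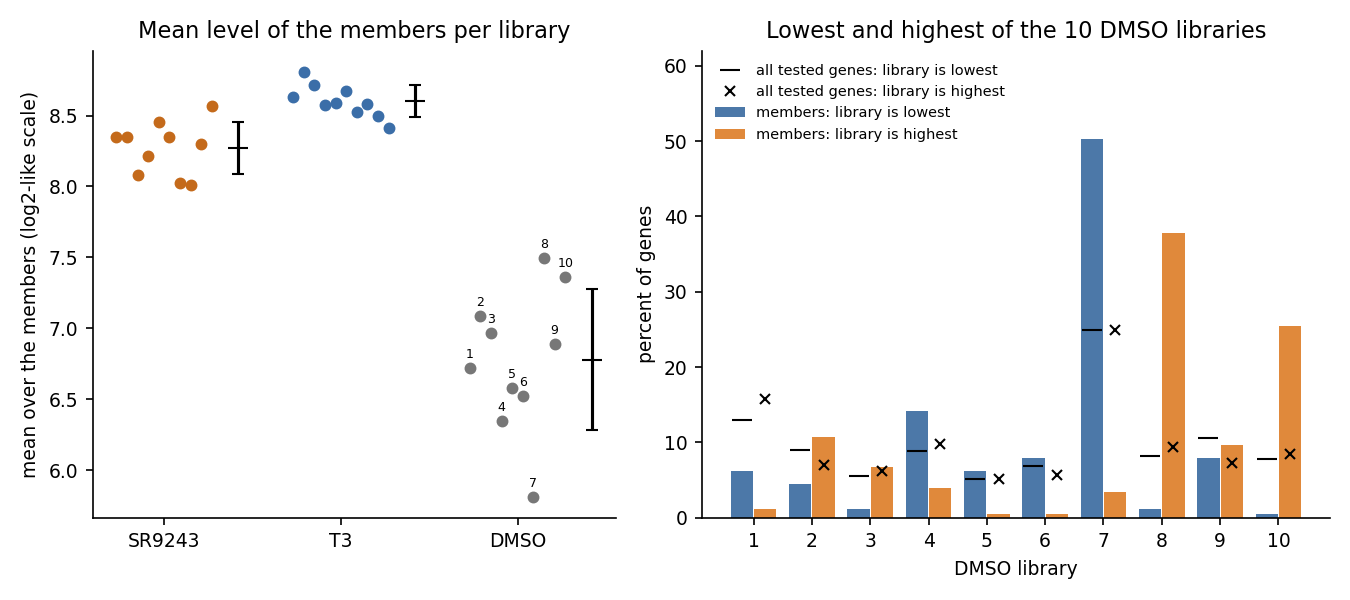
Left, the mean over the 177 members in each library (points) with the group mean and SD (black), on the log2-like scale, and DMSO libraries numbered. Right, the percent of genes in which each DMSO library is the lowest or the highest of the 10, as bars for the members and as marks for the 22615 tested genes. DMSO library 7 is lowest in 50.3% of the members and library 8 highest in 37.9%.

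Member by member, DMSO library 7 was the lowest DMSO library in 89 members (50.3%) and in 25% of all tested genes. In all tested genes it was also the highest just as often, in 25%, but only in 6 members (3.39%). DMSO library 8 was the highest in 67 members (37.9%, against 9.44% of all tested genes) and library 10 in 45 (25.4%, against 8.45%). Library 8 exceeded library 7 in 160 members (90.4%, against 50% of all tested genes). The same order was found in 62 of the 68 genes that met both size limits with T3 at least 1 above SR9243, and in 655 of the 854 genes with a T3 difference of at least 1 and an SR9243 difference under 1. A low DMSO library lowers the DMSO mean and so helps a gene to meet the rule, and these shares are a description for that reason. A single component held 60.2% of the members' variance among DMSO libraries, against 29.7% among SR9243 and 40.0% among T3 libraries. Over all tested genes these shares were 41.5% in DMSO, 28.2% in SR9243 and 24.6% in T3. In the 68 genes with T3 at least 1 above SR9243 the DMSO share was 61.3%, so it was no higher in the members than in those genes.

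**Figure D4:**
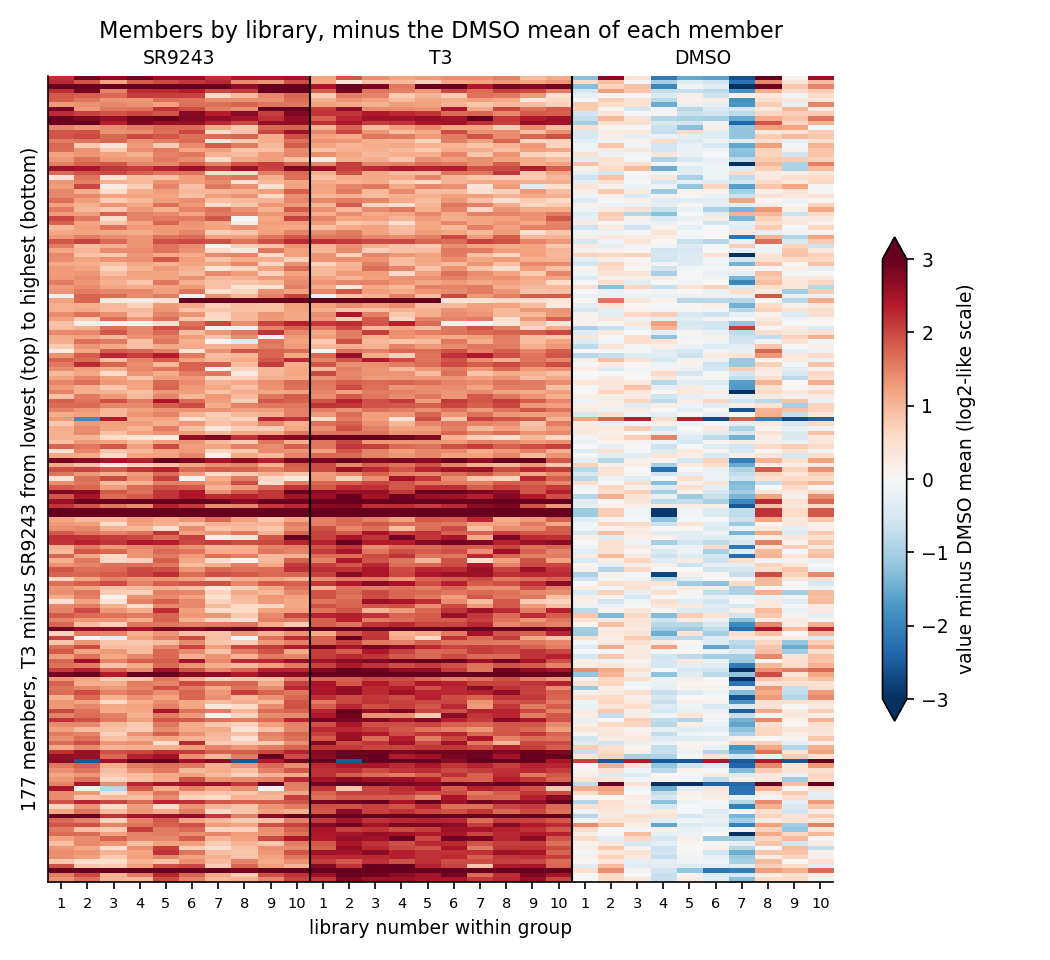
Each row is one of the 177 members, ordered by T3 minus SR9243, and each column a library, with SR9243, T3 and DMSO from left to right. Colour gives the value minus the member's DMSO mean on the log2-like scale, cut at -3 and 3. SR9243 and T3 columns are red throughout most rows, DMSO column 7 is blue in most rows, and DMSO columns 8 and 10 are pale red.

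Libraries of the treated groups were closer together. The median SD of a member was 0.34 among SR9243, 0.29 among T3 and 0.63 among DMSO libraries, against 0.23, 0.22 and 0.29 for all tested genes in the same order of groups. The SD was highest in DMSO in 140 members (79.1%, against 58.2% of all tested genes). This also held for 49 of the 68 genes with T3 at least 1 above SR9243 (72.1%). It held for 596 of the 854 genes with a T3 difference of at least 1 and an SR9243 difference under 1 (69.8%). Low DMSO libraries lower the DMSO mean, which both differences share, and they also widen the DMSO SD. The rule can thus favour genes with a wide DMSO spread, so the SDs and shares given here are a description. Without DMSO libraries 4 and 7 the count of members fell to 114, with 38.4% of all tested genes, and the median DMSO SD of a member to 0.50. Without libraries 4, 7, 8 and 10 the count was 95 members, with 35.6% of all tested genes, and the median DMSO SD 0.40. Without libraries 8 and 10 only, it was 134 members (75.7%, against 57.8% of all tested genes), and the median DMSO SD 0.61. These settings were not planned. Libraries 4 and 7 were lowest and 8 and 10 highest in the members' mean, so a lower spread without all of them follows from that choice. Among the 20 members with both differences of at least 2, the median SD was 0.30 under SR9243, 0.34 under T3 and 1.06 in DMSO. The 68 genes with T3 at least 1 above SR9243 had medians of 0.49 under SR9243, 0.33 under T3 and 0.71 in DMSO.

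**Figure D5:**
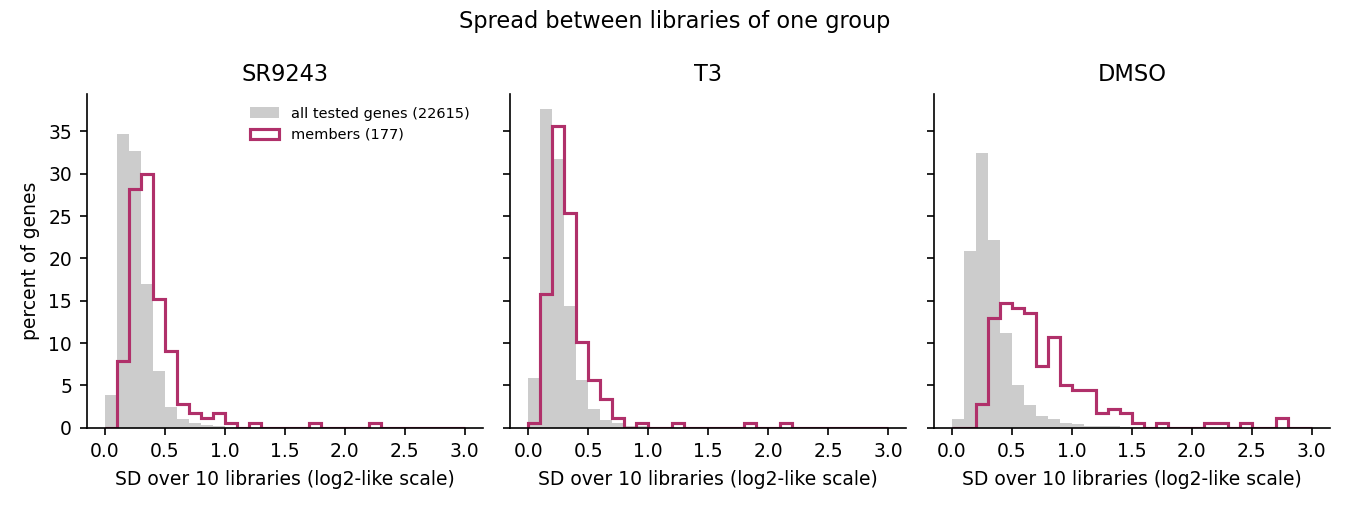
Distribution of the SD between the 10 libraries of a group, on the log2-like scale, as percent of genes in steps of 0.1, for the 177 members (line) and the 22615 tested genes (grey). The members' median is 0.34 in SR9243, 0.29 in T3 and 0.63 in DMSO libraries, and the line reaches furthest to the right in DMSO.

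The spread in DMSO bears on the comparison of the treatments with each other, where the rule limits only T3 above SR9243. In the fit over all 3 groups, 58 members were called between SR9243 and T3, 2 higher and 56 lower under SR9243, a share of 32.8% against 34.7% of all tested genes. ENSAOCG00000004066 was among those lower under SR9243. With only the SR9243 and T3 libraries fitted, which drops DMSO from the estimate of spread, 98 members were called (55.4%, against 40.7% of all tested genes), 7 higher and 91 lower under SR9243. The member ranked 75 shows the effect of that choice. Its values ran from 10.5 to 11.2 with a median of 10.8 in SR9243 libraries, from 9.20 to 10.1 with a median of 9.58 in T3 libraries and from 5.66 to 11.5 with a median of 7.70 in DMSO libraries. SR9243 and T3 libraries did not overlap, and DMSO covered both. SR9243 exceeded T3 by 1.21, the largest such lead, with an SE of 0.53 in the 3-group fit and of 0.10 with the 2 groups alone. It was picked for that lead, so no p is given. At the other end, the member ranked 62 had the largest T3 lead, with means of 7.96 ± 0.39 under SR9243, 8.95 ± 0.25 under T3 and 6.56 ± 0.61 in DMSO (SD, n = 10 each). T3 was free of overlap above SR9243 in 14 members (7.91%, against 3.26% of all tested genes). The rule uses the SR9243 and T3 means and limits their difference, so nothing is read from these shares or directions against all genes.

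Libraries 6 to 10 and 1 to 5 of a treatment were then compared, a division by library number that an earlier account of these data had found to matter and that the labels do not explain. The division itself does not enter the rule, which uses means over all 10 libraries, but high libraries in 1 part can carry a gene past it. It was also found in these same data, so the calls and p-values here are a description and not an independent test. Within SR9243, 3 members were called (limma, 1.69%, against 3.82% of all tested genes), all higher in libraries 6 to 10. Within T3 the same 3 members were called (1.69%, against 3.15%), all lower in libraries 6 to 10. Within DMSO, limma called 0 members and 17 of all tested genes (0.0752%), with 16 members and 1652 genes at an unadjusted p under 0.05. Leaving out DMSO library 7 gave 3 members there, and leaving out SR9243 library 2 or T3 library 2 gave 1. For all tested genes, the count within SR9243 was 863, and 1313 without DMSO library 7. The count of 17 within DMSO was 42 without DMSO library 7, 84 without library 5 and 4 to 9 without DMSO library 1, 2, 3, 4, 6, 8 or 9. At an unadjusted limma p under 0.05 there were 17 members and 3599 genes within SR9243, and 13 and 2575 within T3. The fit pools the spread of all groups, and the members' spread in DMSO was wide. The lower shares of members called are therefore not read as a result about the members.

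The 3 exceptions were ranked 11, 41 and 133. Member 11 lay between 3.94 and 5.45 in SR9243 libraries 1 to 5 and between 6.87 and 7.95 in libraries 6 to 10. In T3 it lay between 7.03 and 8.77 in libraries 1 to 5 and between 4.09 and 4.27 in libraries 6 to 10. In DMSO 4 libraries were at the lowest value and the highest stood at 5.31. The high SR9243 and T3 libraries did not overlap DMSO, while all the low ones lay inside its range except SR9243 library 2 at 5.45. Its difference between libraries 6 to 10 and 1 to 5 was 3.17 within SR9243 (SE 0.41, limma adjusted p = 5.8e-06) and -3.97 within T3 (SE 0.41, limma adjusted p = 1.5e-07), and -0.51 within DMSO (limma adjusted p = 0.798). Member 41 had the same arrangement on a higher level, with means of 6.64 in libraries 1 to 5 and 8.57 in libraries 6 to 10 of SR9243, and of 9.08 and 6.77 in those of T3. Member 133 differed by 1.55 within SR9243 and by -1.69 within T3. The interaction, that is the difference between these differences, was called for 5 members (2.82%, against 5.7% of all tested genes), and for 3 without SR9243 library 5 or without T3 library 3, 4, 7 or 10. For the 3 members above, the like mean under SR9243 and T3 is the average of high and low libraries in both groups. In member 11 the low libraries averaged 4.49 under SR9243 and 4.16 under T3, against 3.70 in DMSO. In member 41 they averaged 6.64 and 6.77, against 5.99 in DMSO. On average these low libraries were less than 1 above the DMSO mean, so both members met the rule through their high libraries.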

How the data were processed

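The deposited values are the authors' normalised counts after variance stabilisation, in log2-like units that are compressed at low values, for 22816 Ensembl gene IDs in 30 libraries. The submitters' processing notes name FastQC 0.11.8 and kallisto 0.46.1. The annotation, the build and the variance-stabilising tool were not given in the sources used here. Libraries were stranded, poly(A)-selected and read as pairs of 150 bases, per the labels' protocols. All libraries shared 1 lowest value, read as a count of 0. Depth is unknown, since library totals were not used here, and counting intervals are not given. Columns left unused numbered 0.

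Groups and library numbers came from the titles, with column prefix TH read as T3. Tested genes (22615) exceeded the lowest value in 10 or more libraries. They were fitted with limma 3.58.1 in R 4.3.3, with a mean-variance trend, two-sided, Benjamini-Hochberg adjusted over all tested genes, threshold 0.05. A second model had 6 cells, 3 treatments by library numbers 1 to 5 and 6 to 10, and its interaction was added after seeing the data. Both were tested on simulated data with independent libraries and, for each gene, the same spread in every group. That setting does not cover the wider DMSO spread of the members. The reference gene table (28286 genes) held 0 Ensembl IDs, so the gene lists and cell type markers written for this work could not be applied, and the 2 members with the largest smaller difference are named. The members, lists and the division by library number were chosen with earlier results of these data known. Alternatives were other scalings, filters, thresholds, weights, a replicate block and left-out libraries. Same-numbered libraries deviated together (correlation above 0.1) in 7 of 30 pairs, with a range of -0.278 to 0.183. Differently numbered libraries were not compared, and the division by library number was not removed first. This check therefore cannot settle whether the numbers pair the libraries, and no pairing was used in the main fits.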

Additional observations from a re-analysis of the deposited data

Results flagged for a closer look

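In 9 values per group (the mean over the members and 8 members shown above), the gap between an extreme library and its neighbour was set against the range of its 10 libraries. It was above Dixon's 95% limit in 3 of 27 groups. Chance flags about 5% of groups that were not picked by their values. Most of these members were picked by their values, so that rate does not apply and the count is a description. The member with the highest mean level had DMSO library 7 far below the others, at 9.065. The member with the largest DMSO SD had T3 library 2 at the lowest value of the table, 2.881, with the other T3 libraries between 7.89 and 8.95. The tightest member had 1 T3 library above the rest, at 7.866.

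The difference between libraries 6 to 10 and libraries 1 to 5 was not the same under SR9243 and under T3 for 5 members (limma interaction, adjusted p under 0.05), 2.82% of the members against 5.7% of all tested genes. In 4 of them it was higher under SR9243 and in 1 lower, and 3 were called without SR9243 library 5 or without T3 library 3, 4, 7 or 10. The interaction was 7.13 (SE 0.57, limma adjusted p = 3.9e-10) for the member ranked 11, 4.24 (SE 0.40, limma adjusted p = 7.9e-09) for that ranked 41 and 3.24 (SE 0.39, limma adjusted p = 4.9e-07) for that ranked 133. For the members ranked 61 and 84 it was 1.14 (limma adjusted p = 0.04) and -1.30 (limma adjusted p = 0.0272). The division was found earlier in these same data, so these p-values are a description. What the library numbers stand for was not tested.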

How the results depend on the processing

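The number of genes that met the rule was 162 with library medians set equal (159 shared with the 177), 167 with quantile normalisation (161 shared), 184 with group medians (148 shared) and 188 without leaving out the 200 highest. It moved to 356 with a threshold of 0.8 and to 99 with 1.2, by construction. Without DMSO libraries 4 and 7 it was 144 (123 shared), and without DMSO libraries 8 and 10, added after seeing the data, 241 (174 shared). With SR9243 libraries 6 to 10 and T3 libraries 1 to 5 it was 234 (133 shared), and with the remaining treated libraries 205 (151 shared). Leaving out 1 library at a time gave 152 (without DMSO library 7) to 205 (without DMSO library 8).

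Leaving out 1 library at a time, members called ranged from 174 to 175 for SR9243 against DMSO, 174 to 177 for T3 against DMSO, 50 to 75 for SR9243 against T3, 3 to 3 for the library numbers within SR9243, 3 to 4 within T3, 0 to 3 within DMSO and 3 to 7 for the interaction. The interaction called 3 members without SR9243 library 5 or without T3 library 3, 4, 7 or 10. Genes called ranged from 5852 to 7240, 11046 to 11635, 6908 to 8868, 609 to 1313 (the highest without DMSO library 7), 580 to 900, 4 to 84 and 1122 to 1620 in the same order. The count within DMSO was 6 with quantile normalisation. Members called between SR9243 and T3 were 98 with only these groups fitted. The other planned fits left the counts within 1.5 times.

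With the library number as a replicate block, 174 members were called for SR9243, 176 for T3 and 60 between the treatments, and 6197, 11131 and 7453 genes, so no count moved by over 1.5 times. The depth is unknown, and the compressed scale understates differences of low genes.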
